A study of Homo sapiens with 6 samples.

Results

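The Na,K-ATPase (sodium pump) is built from a catalytic alpha subunit, which hydrolyses ATP and moves sodium out of and potassium into the cell, and a glycosylated beta subunit, which carries the alpha subunit to the plasma membrane and also takes part in cell adhesion. Small single-span proteins of the FXYD family bind the assembled pump and tune its affinity for ions. The genes described here are 3 beta subunits (ATP1B1, ATP1B2 and ATP1B3) and 4 FXYD regulators (FXYD3, FXYD5, FXYD6 and FXYD7), that is 7 of the 28008 gene symbols in the count table. They were found by symbol, and the group was chosen because ATP1B2 was higher in the doxycycline-treated cells, so that difference is given as a description with no test. Of the 7 genes, 6 were among the 17026 genes with enough counts to be tested, and FXYD7 was not.

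The libraries were made from NCI-H660, a prostate cancer line of the neuroendocrine type (NEPC), carrying a tetracycline-inducible shRNA against MUC1 in a puromycin-selected lentiviral vector. The 3 DOX-negative libraries came from cells given 0.1% DMSO, and the 3 DOX-positive libraries from cells given 500 ng/ml doxycycline (DOX), which switches on the shRNA. All 6 libraries came from the same vector-carrying cells, whether these were a pool or a clone was not stated, and a single MUC1 shRNA was used. No library of cells with a control shRNA and DOX was among the 6, so exposure to DOX and MUC1-C silencing cannot be told apart. The groups were read from the sample titles. The treatment and genotype fields of the labels hold "wild-type" and "total RNA", the same for all 6 libraries. These fields do not match the titles and name neither DOX nor the shRNA. The extraction protocol in the labels says that cells were cultured in triplicate, and p values measure only the spread between these samples.

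Total counts were between 47620696 and 74061121 per library. MUC1 was lower in every DOX-positive library, which fits the sample titles (log2 fold change -1.32, SE 0.096, edgeR adjusted p = 0.00017). It was at 36.7, 37.2 and 29.9 CPM (counts adjusted for library size with TMM factors) against 88.2, 90.2 and 79.6 in the DOX-negative libraries. Of the 10 neuroendocrine markers, 10 were detected, with a summed level of 1803 to 2040 CPM in DOX-negative and 1539 to 1834 CPM in DOX-positive libraries. The 5 luminal prostate markers summed to between 2.36 and 3.36 CPM over the 6 libraries, and KLK3 was at 0 counts in all of them. INSM1 (log2 fold change -0.45, edgeR adjusted p = 0.039) and NCAM1 (-0.50, edgeR adjusted p = 0.014) fell among the neuroendocrine markers. CHGB was higher with no overlap (0.29, edgeR adjusted p = 0.17, not called). Of the 10 markers, 7 had negative and 3 had positive log2 fold changes. The 7 fibroblast markers summed to 25.2 to 30.6 CPM without DOX and to 23.5 to 27.9 CPM with DOX, with COL3A1 and THY1 at 0 counts, while COL1A1 (0.60, edgeR adjusted p = 0.019) and LUM (1.06, edgeR adjusted p = 0.030) rose, COL1A2 was lower with no overlap (-0.71, edgeR adjusted p = 0.20, not called), and the part of such markers in the differences of the pump genes was not tested. Over all tested genes the median log2 fold change was 0.00034, and 829 genes (4.87%) were called at an adjusted p under 0.05, of which 496 (2.91%) were higher and 333 (1.96%) lower in DOX-positive libraries.

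Sequences of the FXYD members are shown first, since the family is defined by a short shared motif at the edge of the membrane span. In the GENCODE coding sequences, 4 of the 4 FXYD members held this motif in frame, and in 4 of 4 an intron split its 15 bases. The capitals mark the motif codons, with 18 coding bases on each side in lower case, and all are written 5′ to 3′ on the coding strand.
FXYD3: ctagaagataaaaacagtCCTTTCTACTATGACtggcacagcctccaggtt
FXYD5: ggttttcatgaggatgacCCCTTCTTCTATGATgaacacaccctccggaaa
FXYD6: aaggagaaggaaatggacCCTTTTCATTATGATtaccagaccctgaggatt
FXYD7: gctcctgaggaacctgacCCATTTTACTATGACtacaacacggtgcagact
The motif of FXYD3 lies at chr19:35121233-35122766 (intron included, plus strand), that of FXYD5 at chr19:35166159-35166252 (plus strand), that of FXYD7 at chr19:35148711-35151255 (plus strand) and that of FXYD6 at chr11:117841864-117842002 (minus strand), all on GRCh38. It begins at coding base 85 in FXYD3 and FXYD6, at 49 in FXYD7 and at 400 in FXYD5. The coding sequence of FXYD5, at 534 bases, is longer than the 240 to 285 bases of the other FXYD members. The added length lies before the motif and encodes the long extracellular part for which FXYD5 (dysadherin) is known.

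The windows upstream of ATP1B2 and FXYD5 are shown because they had the largest log2 differences between the groups among the tested members. They are the 250 bases before the RefSeq start of each gene (GRCh38.p14), at chr17:7646377-7646626 for ATP1B2 and chr19:35154485-35154734 for FXYD5, both on the plus strand. Capitals mark matches on either strand to 1 of 6 searched motifs, the GC box (GGGCGG), TEAD (GGAATG), AP-1 (TGANTCA), the CRE core (TGACG), the CCAAT box (CCAAT) and the E-box (CACGTG).
ATP1B2: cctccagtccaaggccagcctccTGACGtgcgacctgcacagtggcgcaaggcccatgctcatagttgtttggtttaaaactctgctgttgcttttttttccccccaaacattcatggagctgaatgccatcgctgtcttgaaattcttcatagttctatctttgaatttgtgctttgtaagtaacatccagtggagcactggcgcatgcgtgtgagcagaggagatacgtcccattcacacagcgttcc
FXYD5: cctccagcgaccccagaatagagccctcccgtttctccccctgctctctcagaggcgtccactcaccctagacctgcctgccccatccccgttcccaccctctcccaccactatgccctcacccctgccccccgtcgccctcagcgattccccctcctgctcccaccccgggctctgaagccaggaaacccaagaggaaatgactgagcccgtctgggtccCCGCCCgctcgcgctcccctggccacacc
The ATP1B2 window held 1 CRE core, 223 to 227 bases before the start, and its GC content was 49.2%. The FXYD5 window held 1 GC box, 24 to 29 bases before the start, with a GC content of 68%. Of all 35116 windows of this length, 21.2% held a CRE core and 42.6% a GC box, so neither match is rare. The shares were 11.9% for the TEAD motif, 6.57% for AP-1, 32.0% for the CCAAT box and 6.34% for the E-box. The windows of ATP1B1 and ATP1B3 had GC contents of 77.6% and 77.2% and held 2 and 4 GC boxes, with 1 CCAAT box each. A CRE core was also found once in the ATP1B3 window and once in 1 of the 2 FXYD6 windows. The ATP1B2 window belongs to the most upstream of the 3 GENCODE transcripts, whereas the transcript marked as principal starts 4485 bases downstream, at position 7651112, and gene-level counts do not say which start was used.

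Among the beta subunits, ATP1B2 was higher, ATP1B3 missed the threshold with the same direction, and ATP1B1 differed by less than the spread between replicates. ATP1B1 (chr1:169106690-169132719), the beta subunit of most epithelia, was at 298, 301 and 313 CPM without DOX and at 309, 262 and 319 CPM with DOX. The groups overlapped, and the DOX-positive range held the whole DOX-negative range. The log2 fold change of ATP1B1 was -0.03 (SE 0.083, 95% interval -0.21 to 0.15, edgeR adjusted p = 0.86).

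ATP1B2 (chr17:7646627-7657770) encodes the beta subunit first described as an adhesion molecule on glia and found mainly in brain. It was counted 30, 32 and 25 times in the DOX-negative libraries and 94, 98 and 141 times in the DOX-positive libraries. These counts correspond to 0.469, 0.517 and 0.525 CPM against 1.24, 1.78 and 1.91 CPM. Each DOX-positive library was above each DOX-negative library, and DOX-positive replicate 1 was the lowest of its group. The means were 0.504 ± 0.030 and 1.65 ± 0.355 CPM (SD, n = 3), a fold of 3.26 in the fit (log2 fold change 1.70, SE 0.22). Without each library in turn, the log2 fold change of ATP1B2 was between 1.57 and 1.88. In bulk libraries, more RNA per cell and more cells with the transcript cannot be told apart.

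ATP1B2 was scarce in both groups. In deposited TPM, which divide by gene length, ATP1B2 was at 0.078, 0.091 and 0.072 in the DOX-negative and 0.247, 0.235 and 0.306 in the DOX-positive libraries. Its mean over the 6 libraries was 0.172 TPM, against 79.2 TPM for ATP1B1 and 17.9 TPM for ATP1B3. Glial markers, listed because ATP1B2 is known from glia, summed to 16.8 to 18.5 CPM in DOX-negative and 17.6 to 22.1 CPM in DOX-positive libraries over 11 genes. Of these 2 were tested and 0 called, and S100B, OLIG2, SOX10 and MOG were at 0 counts in all 6 libraries. MBP was at 14.6, 13.8 and 14.3 CPM without DOX and at 14.7, 15.7 and 18.3 CPM with DOX, with no overlap (edgeR adjusted p = 0.29). ALDH1L1, the other tested gene, overlapped (edgeR adjusted p = 0.74). AQP4, not tested, was counted 2, 0 and 1 times without DOX and 4, 8 and 6 times with DOX.

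ATP1B3 (chr3:141876643-141926549), a widely expressed beta subunit, was at 53.1, 49.7 and 50.6 CPM without DOX and at 59.7, 59.3 and 74.0 CPM with DOX. The groups did not overlap, and DOX-positive replicate 3 stood above the other 2 of its group. The log2 fold change was 0.33 (SE 0.093, 95% interval 0.13 to 0.53), which missed the threshold (edgeR adjusted p = 0.063). ATP1B3 passed in 4 of 18 alternative settings, namely DESeq2 (adjusted p = 0.028), no count filter (edgeR adjusted p = 0.036), the replicate block (edgeR adjusted p = 0.038) and the fit without DOX-positive replicate 2 (log2 fold change 0.39, edgeR adjusted p = 0.036). Leaving out any other library gave no call, and the log2 fold change was lowest without DOX-positive replicate 3 (0.22, edgeR adjusted p = 0.18).

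**Figure D1:**
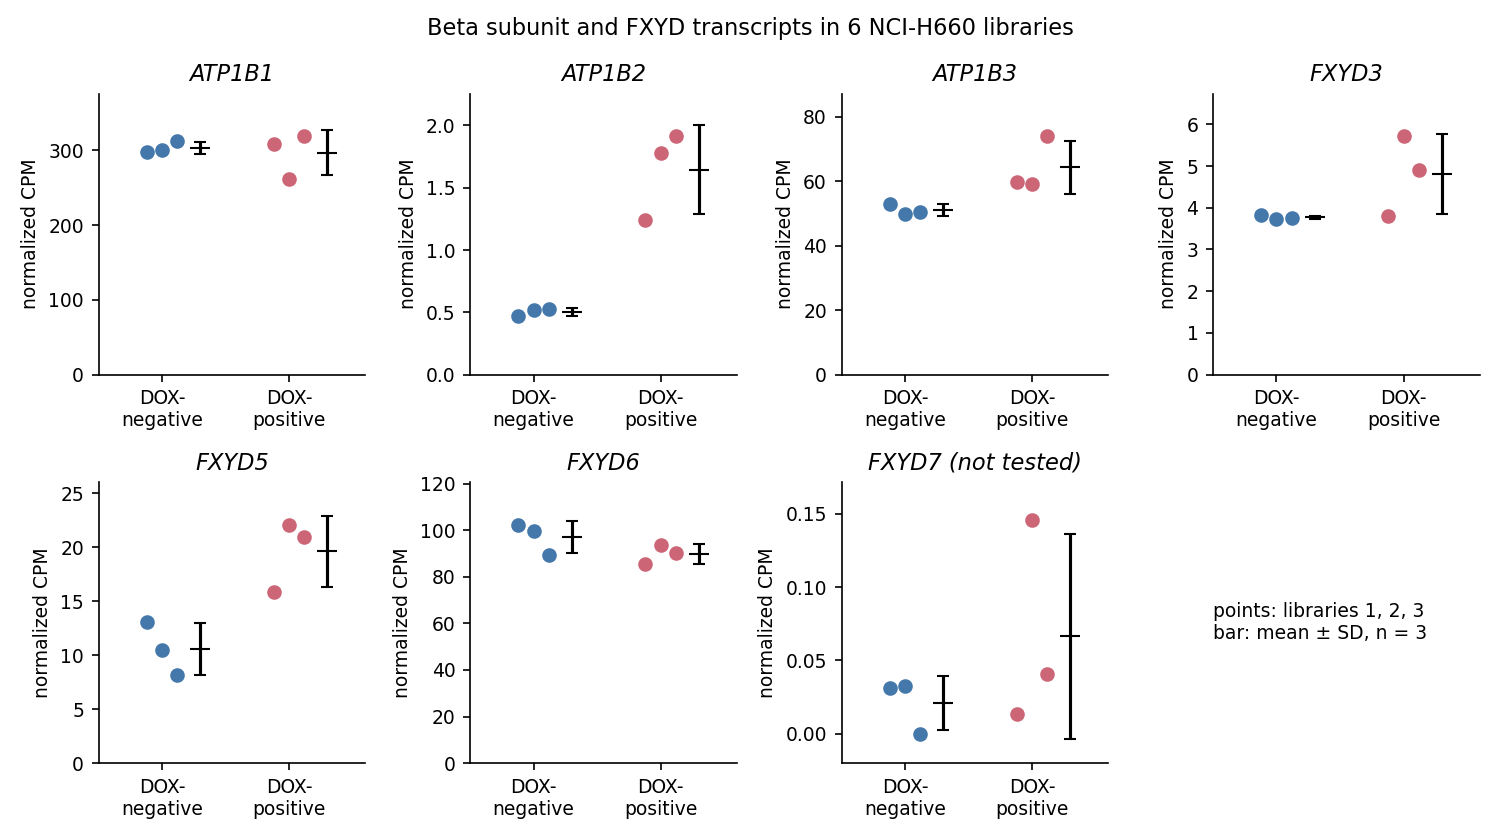
Normalized CPM (y axis, a scale for each gene) of the 7 members in the 3 DOX-negative and 3 DOX-positive libraries, with points for libraries and bars for mean ± SD (n = 3). ATP1B2, ATP1B3 and FXYD5 were separated between the groups, ATP1B1, FXYD3 and FXYD6 overlapped, and FXYD7 rested on 0 to 8 counts.

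Among the FXYD regulators, FXYD5 was higher in DOX-positive libraries, and FXYD3 and FXYD6 did not pass the test. FXYD5 (chr19:35154735-35169881), or dysadherin, is known for lowering cell-to-cell adhesion mediated by E-cadherin and by the beta subunit. It was at 13.1, 10.5 and 8.19 CPM without DOX and at 15.9, 22.1 and 20.9 CPM with DOX. No value of one group lay within the other, although the spread within each group was wide. The means were 10.6 ± 2.43 and 19.6 ± 3.28 CPM (SD, n = 3), a fold of 1.85 in the fit (log2 fold change 0.89, SE 0.16, 95% interval 0.53 to 1.25, edgeR adjusted p = 0.015).

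The call of FXYD5 was not kept in every fit with 1 library left out. It was lost without DOX-negative replicate 2 (log2 fold change 0.88, edgeR adjusted p = 0.076) and without DOX-negative replicate 3 (0.73, edgeR adjusted p = 0.082). Leaving out DOX-positive replicate 2 also lost it (0.79, edgeR adjusted p = 0.081). Over all genes, 829 calls became 127, 58 and 828 in these fits, in that order. The log2 fold change of FXYD5 was between 0.73 and 1.07 over the libraries left out in turn. Its call was also lost with the replicate block (log2 fold change 0.90, edgeR adjusted p = 0.067), and 11 of 18 alternatives kept it.

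FXYD6 (chr11:117836981-117877430), a regulator known from brain and inner ear, had the highest level per length of the family, at 22.1 TPM over the 6 libraries. In CPM it was at 102, 99.7 and 89.5 without DOX and at 85.5, 93.7 and 90.2 with DOX, with overlap. Its log2 fold change was -0.11 (SE 0.078, 95% interval -0.28 to 0.05, edgeR adjusted p = 0.44). FXYD3 (chr19:35115823-35124324), an epithelial regulator often found in carcinomas, was at 3.82, 3.73 and 3.76 CPM against 3.81, 5.71 and 4.91 CPM. DOX-positive replicate 1 lay inside the DOX-negative range and the other 2 above it. The log2 fold change of FXYD3 was 0.35 (SE 0.15, 95% interval 0.02 to 0.67, edgeR adjusted p = 0.21).

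FXYD7 (chr19:35143255-35154302), a regulator known from neurons, was counted 2, 2 and 0 times in DOX-negative and 1, 8 and 3 times in DOX-positive libraries. The count of 0 in DOX-negative replicate 3 allows up to 3 counts, or 0.063 CPM, by counting error alone, and no difference was detectable at this depth. FXYD3, FXYD1, FXYD7 and FXYD5 lie in that order within 54.1 kb of chromosome 19. FXYD5 was called while FXYD3, at the other end, was not, and the difference between them was not tested.

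Of the 5 tested members other than ATP1B2, 1 (FXYD5) was called, against 4.87% of all tested genes, and with ATP1B2, on which the group was selected, the count was 2 of 6. The groups did not overlap for 3 of the 6 tested members, against 28.1% of all tested genes, and ATP1B2 is again 1 of them. Several members share sequence with other annotated genes. RefSeq lists 1 pseudogene of ATP1B1, 1 of ATP1B3 and 3 of FXYD6, of which 0 were in the count table, ATP1B1 overlaps NME7 over 189 bases, and FXYD6 overlaps the readthrough gene FXYD6-FXYD2, which had 0 counts, over 39678 of its 40450 bases.

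**Figure D2:**
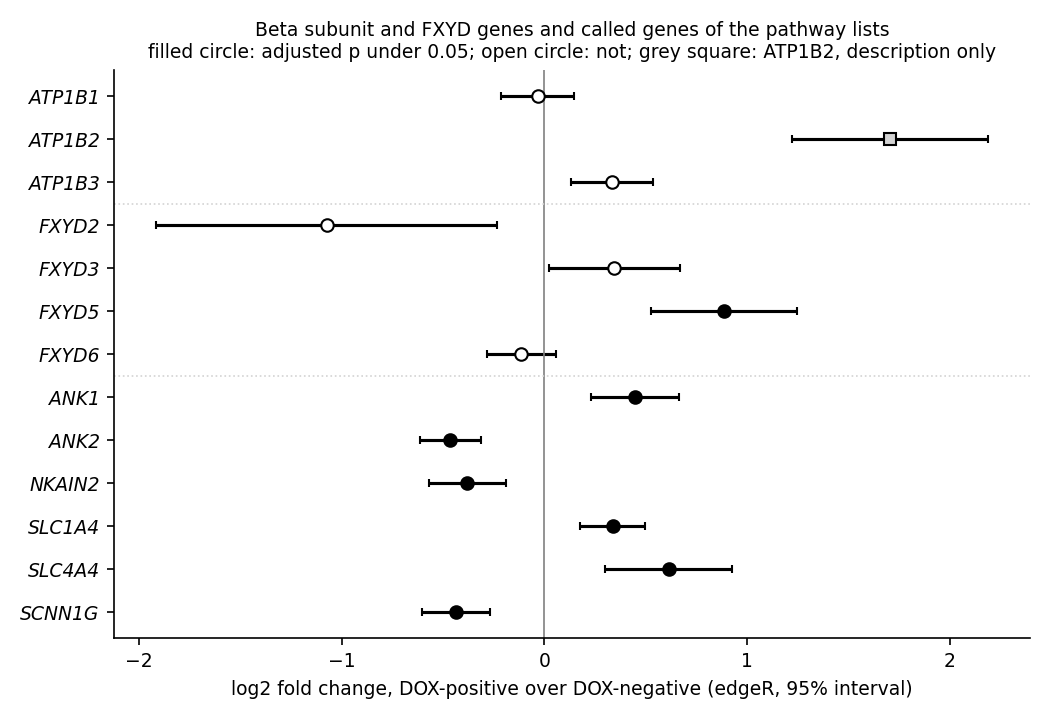
Log2 fold change (x axis, DOX-positive over DOX-negative, points with 95% intervals from edgeR) of the tested beta subunit and FXYD genes and of 6 called genes of the pathway lists. FXYD5 at 0.89 was the called member, ATP1B2 at 1.70 is a description only, and ATP1B1 was near 0.

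To compare the members with each other, levels were set per length, as shares of summed TPM within each library. ATP1B1 made up 83.4% ± 0.709 of beta subunit TPM in DOX-negative and 79.4% ± 1.63 in DOX-positive libraries (SD, n = 3). The share of ATP1B3 was 16.5% ± 0.713 and 20.3% ± 1.57. That of ATP1B2 was 0.0851% ± 0.0044 and 0.273% ± 0.065, so the subunit with the largest log2 difference remained the scarcest of the 3 in every library.

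The ratio of ATP1B1 to ATP1B2 was 1031, 945 and 969 in DOX-negative and 404, 239 and 271 in DOX-positive libraries. ATP1B1 exceeded ATP1B3 by 4.76, 5.13 and 5.25 times in the DOX-negative and by 4.40, 3.75 and 3.66 times in the DOX-positive libraries, with no overlap. An exact two-sided permutation test of 3 against 3 cannot go below p = 0.1, so these ratios are given with no test.

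Within the FXYD family, FXYD6 held 80.6%, 82.9% and 84.2% of TPM in DOX-negative and 75.6%, 70.3% and 71.3% in DOX-positive libraries. FXYD5 held 14.8%, 12.6% and 11.1%, then 20.2%, 23.8% and 23.8%. FXYD6 thus led FXYD5 in all 6 libraries, by 6.55 ± 1.07 times without and 3.23 ± 0.440 times with DOX (SD, n = 3). FXYD3 held 3.35% ± 0.292 and 4.01% ± 0.479, with overlap between the groups.

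**Figure D3:**
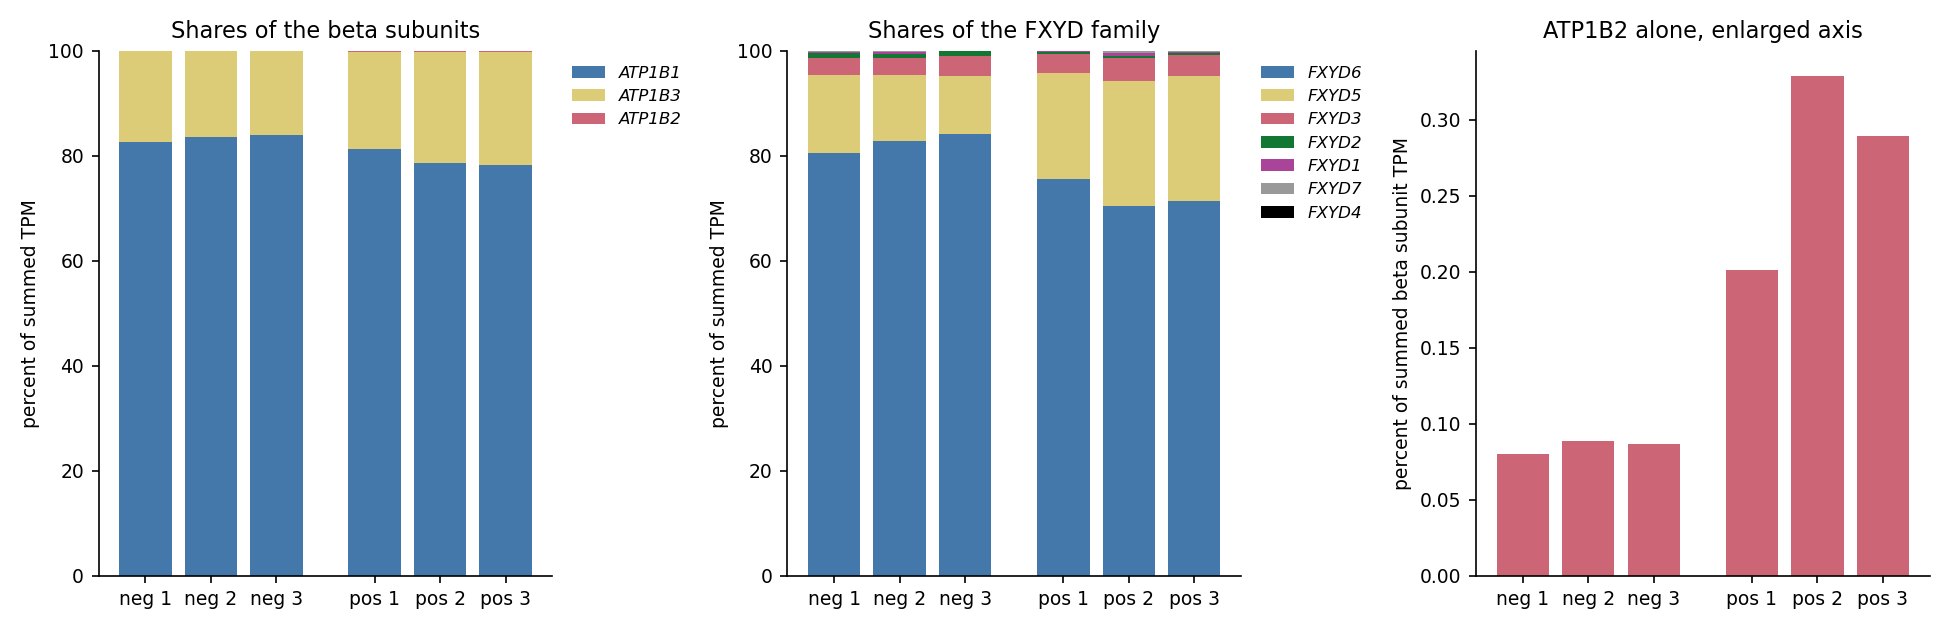
Percent of summed TPM (y axis) in each library (x axis; neg, DOX-negative; pos, DOX-positive) held by each beta subunit, by each FXYD gene, and by ATP1B2 alone on an enlarged axis. ATP1B1 and FXYD6 led in all 6 libraries, and ATP1B2 stayed below 0.329% of beta subunit TPM.

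FXYD2, the renal regulator, was tested on 17, 11 and 10 counts without DOX against 8, 6 and 7 counts with DOX. Its log2 fold change of -1.07 (SE 0.39) was not called (edgeR adjusted p = 0.13). FXYD2 passed the count filter only through the DOX-negative libraries, where it was higher, so nothing is read from this difference. FXYD1 and FXYD4 were not tested, and ATP1B4 had 0 counts in all 6 libraries. These 4 genes were at or below 17 counts in every library.

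The lists of genes around the pump held 77 genes other than the members, of which 62 were tested and 7 called, 4 higher and 3 lower (11.3%, against 4.87% of all genes), with a median log2 fold change of 0.0078. Of 14 tested pump partners and regulators, 1 rose and 2 fell. ANK2, an ankyrin that anchors the pump and ion exchangers to the spectrin skeleton, fell (580, 573 and 554 CPM against 416, 397 and 425 CPM, log2 fold change -0.46, SE 0.070, edgeR adjusted p = 0.0060). ANK1, the ankyrin of red cells, rose by a log2 fold change of 0.45 (SE 0.099, edgeR adjusted p = 0.026). NKAIN2, of a family that binds beta subunits, fell by 0.38 on the log2 scale (SE 0.087, edgeR adjusted p = 0.030). ANK3, the other ankyrin of the list, had a log2 fold change of 0.23 and was not called (edgeR adjusted p = 0.14), so of the 3 tested ankyrins 1 rose and 1 fell.

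Of 27 tested sodium-coupled transporters and channels, 3 rose and 1 fell, among them the following. SLC4A4, a sodium bicarbonate cotransporter, rose by a log2 fold change of 0.61 (SE 0.14, edgeR adjusted p = 0.033), and SLC1A4, a neutral amino acid transporter, by 0.34 (SE 0.074, edgeR adjusted p = 0.026). SCNN1G, the gamma subunit of the epithelial sodium channel, fell by 0.44 on the log2 scale (SE 0.077, edgeR adjusted p = 0.012). Of the calls named here, that of ANK2 was kept whichever library was left out. SCNN1G was lost without DOX-negative replicate 2 or 3, and ANK1, SLC1A4 and SLC4A4 without either of these or DOX-positive replicate 3. NKAIN2 was lost when any DOX-negative replicate or DOX-positive replicate 3 was left out, and passed in 10 of 18 alternatives. Among 11 tested subunit genes of calcium and proton P-type pumps, 4 potassium-chloride cotransporters and 3 genes of the hypertonic response, 0 were called. Their median log2 fold changes were -0.20, 0.15 and 0.14, in that order.

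Genes near ATP1B2 on chromosome 17 were compared with it. SHBG and SAT2 before it and WRAP53 after it had log2 fold changes of 0.08 (SE 0.45), 0.04 (SE 0.096) and -0.02 (SE 0.10), and 0 of the 3 were called in edgeR or in any alternative. The edgeR adjusted p values were 0.95, 0.85 and 0.95. SHBG was counted only 5 to 22 times a library, and its interval reached from -0.90 to 1.06.

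The genes whose level over the 6 libraries was most like that of ATP1B2 were sought among 14581 tested genes whose mean count was 50 or more, by the root mean square difference of log2 CPM centred on each gene's mean. The nearest were MMP13, a collagenase (0.120), PLAU, the urokinase plasminogen activator (0.172), ADAMTS1, a protease of the extracellular matrix (0.183), RFTN1, a lipid raft protein (0.213), and LAMB3, a laminin chain (0.216). Their log2 fold changes were 1.75, 1.54, 1.68, 1.42 and 1.49. MMP13, the nearest, was as scarce, with 23, 22 and 22 counts against 72, 74 and 121 counts. Since ATP1B2 was selected on its difference between the groups, genes near it share that difference by construction, and this is a description of 6 libraries.

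**Figure D4:**
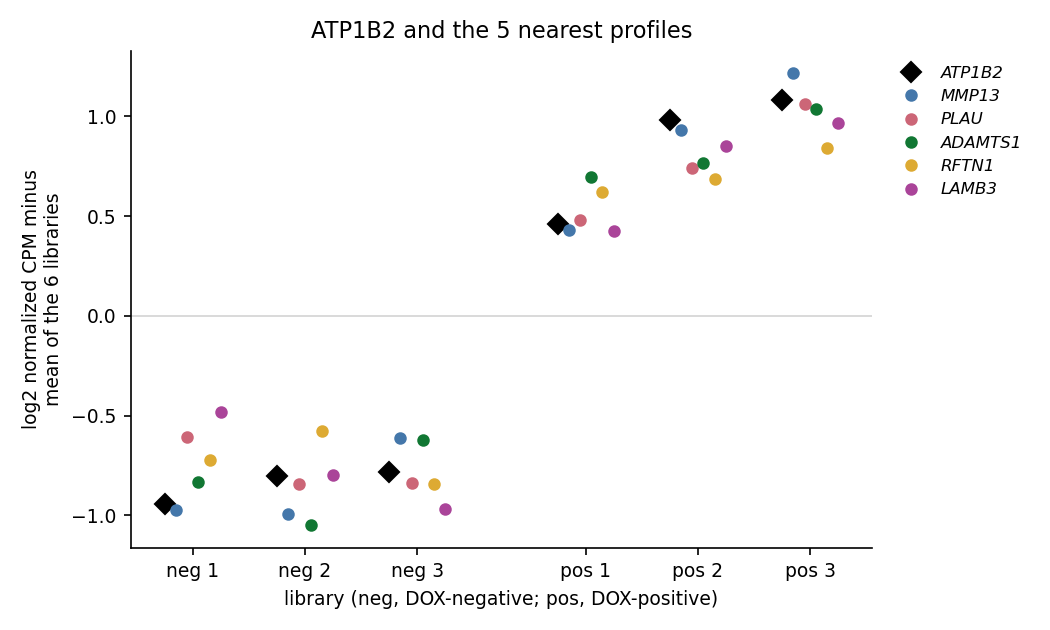
Log2 normalized CPM minus each gene's mean over the 6 libraries (y axis) for ATP1B2 (diamonds) and the 5 nearest genes (circles), by library (x axis; neg, DOX-negative; pos, DOX-positive). All 6 genes lay below their mean in the 3 DOX-negative and above it in the 3 DOX-positive libraries, with ATP1B2 between -0.94 and 1.08.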

How the data were processed

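RNA-seq libraries of 6 cultures were analysed, 3 per group, with groups and replicate numbers taken from the sample titles. Raw counts were deposited by the authors for each symbol (28008 symbols, made with STAR per the submitters' processing notes, which also name GRCh38 and DESeq2) and TPM (25673 symbols), that is counts divided by length and scaled to a common total. Aligner version, annotation and strand setting are not given in the sources used here, and 0 columns were left unmapped. A few noncoding RNAs took much of the TPM (the top gene held 25.7% to 34.5% per library), so groups were compared on counts and TPM was used within libraries.

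Counts were filtered with filterByExpr, scaled with TMM factors (0.967 to 1.03) and tested with edgeR 4.0.16 in R 4.3.3 (glmQLFit with robust estimation, glmQLFTest, no covariate), adjusting by Benjamini-Hochberg over 17026 genes and calling at an adjusted p under 0.05. The code was tested on simulated counts. Alternatives comprised other scaling (RLE, upper-quartile, none), no filter, a mean of at least 50 counts, DESeq2 1.42.0, limma-voom (limma 3.58.1), limma-trend on log2(TPM + 1) with and without a minimum mean TPM of 1 and on log2(TPM + 0.1), no robust estimation, a replicate block, and leaving out each library. Same-numbered libraries did not deviate in the same direction (correlations of -0.51, 0.016 and -0.088 over 15977 genes), and those numbered 1 tended to deviate in opposite directions. The numbers were not taken as pairs, and the replicate block is given as an alternative.

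Named are the members, MUC1, up to 4 called genes of each list by absolute log2 fold change, the RefSeq neighbours of ATP1B2 and the 5 genes nearest to it in profile, beside other pump and FXYD genes and markers, which were added with their values seen. Some genes of these lists are not reported here. The members and lists were chosen with earlier results of these data known. Places and upstream windows came from RefSeq tables (GRCh38.p14), which matched all 7 members by symbol, with windows for 6, and coding sequences from GENCODE v29. Counting error alone underlies the limit given for a count of 0.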

Additional observations from a re-analysis of the deposited data

How the results depend on the processing

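Of the members, 2 were called (ATP1B2, whose call the selection fixed and which is counted without reading anything from it, and FXYD5). The count was 0 in each of the 3 limma-trend fits on TPM, where ATP1B2 lay under the minimum mean TPM in 2 and its log2(TPM + 1) difference was 0.22 in the other, 3 with DESeq2 and with no count filter, and 1 to 2 when each library was left out. With the replicate block it was 2, ATP1B2 and ATP1B3. Of all listed pump and transport genes, members included, 9 were called, 0 in the 3 TPM fits, 9 with the replicate block, and 2 to 10 when each library was left out, the count being 2 without DOX-negative replicate 2 or replicate 3, and 4 without replicate 3 of DOX-positive cells. Over all genes, 829 calls became 0, 30 and 35 in the TPM fits, 1355 with DESeq2, 998 with the replicate block, and 58 to 1035 without 1 library. The MUC1 difference was kept in 17 of 18 alternatives and missed the threshold on unfiltered log2(TPM + 1) at -1.22. The cause was not tested. Differences near 0 changed sign: ATP1B1 ranged from -0.088 to 0.051 over the libraries left out, SAT2 from -0.017 to 0.11, SHBG from -0.29 to 0.43 and WRAP53 from -0.093 to 0.062, and WRAP53 was at 0.0030, 0.0018 and 0.0030 in the 3 TPM fits. The ATP1B2 share of the beta subunits in DOX-positive libraries was 0.273% by TPM and 0.457% by CPM. Counts of 25 to 141 limit ATP1B2, and FXYD7, which the count filter removed, was not called in the 2 fits without a filter on low values and was given no adjusted p by DESeq2.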
